A study of Sus scrofa with 16 samples.

Results

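Apolipoproteins are the proteins that give lipoproteins their structure and steer them to receptors and enzymes. In the liver, APOB is loaded with triglyceride by the microsomal triglyceride transfer protein MTTP to form very low density lipoprotein (VLDL). APOA1 is the main structural protein on the surface of high density lipoprotein (HDL), which also carries APOA2. Smaller exchangeable apolipoproteins such as APOC3 and APOE move between particles and govern lipolysis and uptake.

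The genes described here are APOA1, APOA2, APOA4, APOA5, APOB, APOC3, APOE, APOH, APOM and MTTP, chosen by their gene symbol. An identifier with that symbol was found for 9 of the 10 among the 25880 genes counted in every library, and APOA5 was not analysed here. Liver RNA was taken from 16 pigs bred from crossbred Polish Landrace x Polish Large White sows and crossbred Duroc x Pietrain boars. They were fattened in single pens from 60 to 118 kg on diets of like energy and protein content that differed in the added fat, with no group left without added fat. The fat was rapeseed oil in 5 pigs (3 gilts and 2 barrows, labelled female and male), beef tallow in 5 pigs (2 gilts and 3 barrows) and coconut oil in 6 pigs (3 gilts and 3 barrows). Each pig gave 1 library of mRNA 3′ ends, in which a transcript yields about 1 fragment whatever its length. Read counts were therefore compared between genes without dividing by length. Only reads within annotated genes count, so the level and rank of a gene annotated without its full 3′ end may be too low. The ages of the pigs were not given in the sources used here.

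Libraries held between 705669 and 1767671 reads on genes, with a median of 1018321.5. The largest were those of coconut oil pigs 5 (1659936) and 6 (1767671), so the greatest depth fell within 1 diet. All 8 hepatocyte markers listed were in the files, and 6 of them had at least 5 reads in every pig. SERPINA1 had 0 to 3 reads in every pig, and ASGR1, the asialoglycoprotein receptor, had 1 read in beef tallow pig 3. That pig also had the lowest summed hepatocyte markers, 84350 CPM (reads on a gene scaled to the size of the library), against 127700 to 207100 CPM in the other pigs, and the highest summed Kupffer cell markers, 2598 CPM. ALB was at 27960 CPM in that pig against 63480 to 139900 CPM in the other pigs. FGB, AHSG and ASGR1 were also at their lowest there and TTR ranked 14 from the highest of the 16, while TF ranked 2 and HPX ranked 3. Of the Kupffer cell markers, C1QA, C1QB, C1QC, CD68 and CTSS ranked 1, VSIG4 ranked 2, CD163 ranked 3 and MARCO ranked 11. CSF1R had no read in that pig. Without ALB the hepatocyte sum was 56390 CPM, within the 54880 to 71320 CPM of the other pigs. The enterocyte genes FABP2 and APOBEC1 had no read in any pig. In bulk liver RNA, fewer cells of a type and less RNA per cell cannot be told apart.

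In these livers the apolipoprotein genes were expressed at levels spanning 3 orders of magnitude, and none of the 8 genes with enough reads to be tested passed the test between any 2 diets. Together the 9 genes took 1.98% ± 0.223 of the reads on genes (SD, n = 16). The share was 1.97% ± 0.217 on rapeseed oil (n = 5), 1.96% ± 0.236 on beef tallow (n = 5) and 2.00% ± 0.256 on coconut oil (n = 6). The lowest share was 1.64% in beef tallow pig 5 (95% Wilson interval 1.61 to 1.66) and the highest was 2.43% in coconut oil pig 1 (2.41 to 2.46). These intervals cover counting error only, and the spread between pigs of 1 diet was wider than any of them.

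**Figure D1:**
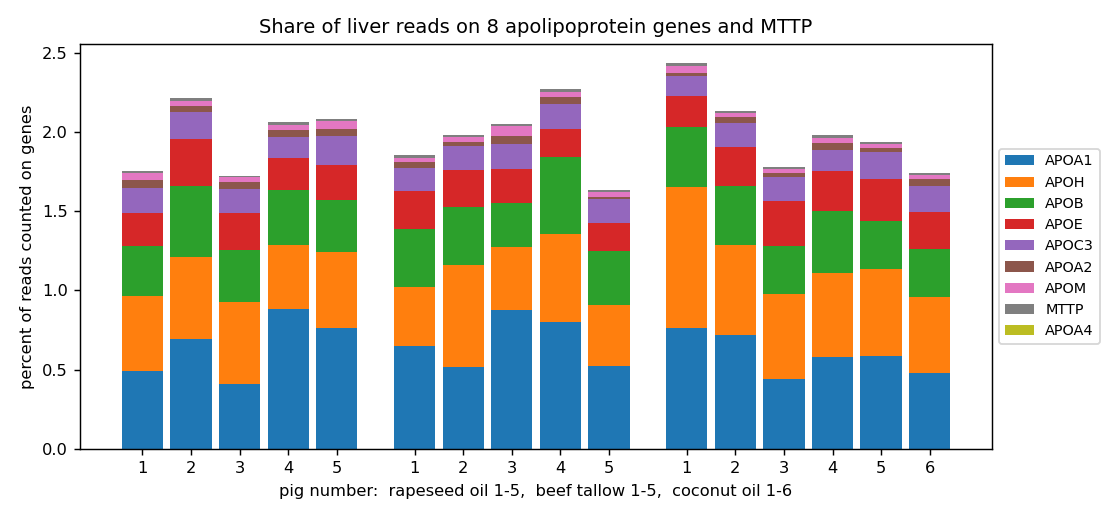
Share of reads on genes (percent) taken by the 9 apolipoprotein and assembly genes in each of the 16 pigs, stacked by gene. The total lies between 1.64% and 2.43%, and pigs of the 3 diets are interspersed.

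In the RefSeq annotation of Sscrofa11.1, APOA5, APOA4, APOC3 and APOA1 form a cluster of 40.5 kb on chromosome 9. APOA4 (ENSSSCG00000040689) lies at 44201587 to 44204072, APOC3 (ENSSSCG00000015069) at 44211171 to 44213538 and APOA1 (ENSSSCG00000030921) at 44216481 to 44218360. The gap between APOC3 and APOA1 is 2942 bp. The other genes lie on 6 chromosomes. APOB (ENSSSCG00000008595) is on chromosome 3 at 117250096 to 117316200 and APOA2 (ENSSSCG00000006355) on chromosome 4 at 89237514 to 89239126. APOE (ENSSSCG00000003088) is on chromosome 6 at 51373113 to 51375333 and APOM (ENSSSCG00000001411) on chromosome 7 at 23768974 to 23773324. MTTP (ENSSSCG00000009179) is on chromosome 8 at 120820660 to 120871468 and APOH (ENSSSCG00000040910) on chromosome 12 at 12827195 to 12839172.

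The order of the genes was nearly the same in every pig. APOA1, the main protein of HDL, took 0.635% of the reads on genes and ranked 14 among all genes. APOH, also called beta-2-glycoprotein I, which binds phospholipids, followed with 0.520% (rank 20). Next came APOB, the structural protein of VLDL and low density lipoprotein (LDL), with 0.353% (rank 31). APOE, the ligand by which remnant particles are taken up, took 0.231% (rank 54), and APOC3, an inhibitor of lipoprotein lipase, took 0.153% (rank 78). APOA2, another protein of HDL, took 0.0372% (rank 360), and APOM, the carrier of sphingosine-1-phosphate in HDL, took 0.0344% (rank 381). MTTP was at 0.0141% (rank 876) and APOA4 at 0.000625% (rank 7428). Of all reads on the 9 genes, 31.9% ± 5.61 fell on APOA1, 26.2% ± 4.75 on APOH and 17.9% ± 2.20 on APOB (SD, n = 16).

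Neighbours in this order were told apart in all 16 pigs except in 2 cases. APOA1 was above APOH in 11 of 16 pigs, and APOA2 was above APOM in 12 of 16 pigs. APOM lay 2.47 times above MTTP on average and MTTP lay 26.7 times above APOA4.

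**Figure D2:**
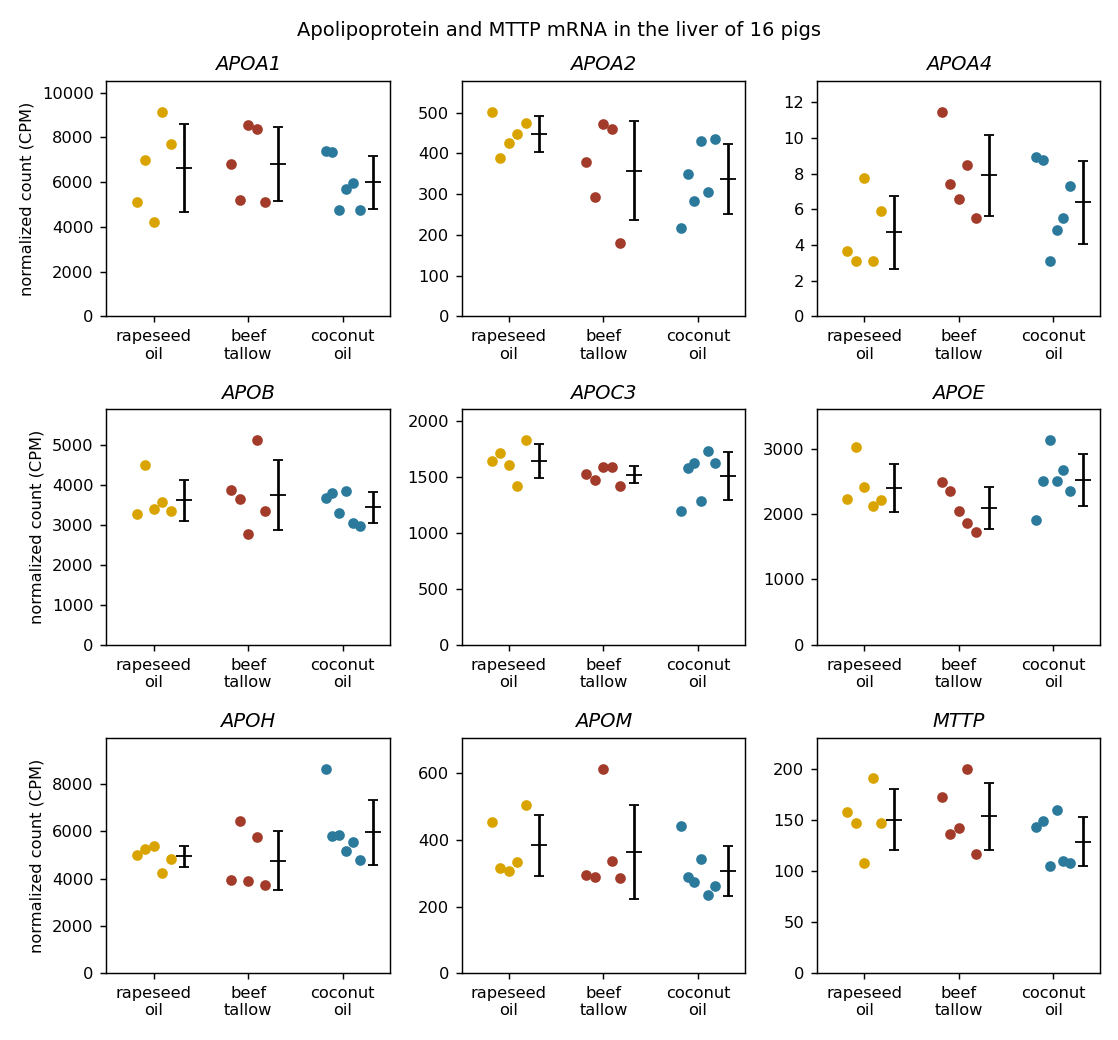
Level of each of the 9 genes (CPM after TMM normalization over the 16 pigs, linear axes from 0), 1 point per pig, with the mean and SD of each diet as bars (n = 5, 5 and 6). The diets overlap for every gene, and APOM in beef tallow pig 3 (613 CPM) and APOH in coconut oil pig 1 (8654 CPM) stand above the rest.

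Levels by pig of the 9 genes and of the wider list are CPM after TMM on 1 scale for the 16 pigs. Marker levels by pig are CPM of the reads on genes without TMM. Fold changes come from fits of 2 diets at a time. Positive log2 values mean higher in the diet named first, and each interval is the 95% interval of the fit. None of the 8 tested genes passed an adjusted p of 0.05 by the quasi-likelihood test of edgeR in any pair of diets. Over all genes tested, 1.11% passed for beef tallow against rapeseed oil, 0.138% for coconut oil against rapeseed oil and 0.0587% for coconut oil against beef tallow. With 1 pig left out, these counts over all genes ran from 9 (without rapeseed oil pig 5) to 149 (without beef tallow pig 3) in place of 70, from 3 (without rapeseed oil pig 3) to 27 (without coconut oil pig 3) in place of 9, and from 4 to 9 (without beef tallow pig 2) in place of 4. At an unadjusted p of 0.05, 0 of 8, 1 of 8 and 0 of 8 genes passed in these comparisons, against 15%, 13% and 11.5% of all genes, and DESeq2 called 0 of 8 in each, against 3.24%, 2.61% and 2.46% of the genes to which it gave an adjusted p. The pigs of the diets overlapped for all 8 genes in every comparison, and 4.54%, 1.44% and 1.47% of all genes did not overlap. The 3 comparisons share pigs, so their values for a gene are given side by side and are not independent.

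APOA1 was variable among pigs of each diet. It was at 5129, 6990, 4231, 9148 and 7691 CPM on rapeseed oil, at 6826, 5187, 8559, 8395 and 5093 CPM on beef tallow, and from 4753 over a median of 5847 to 7383 CPM on coconut oil. The highest and the lowest of the 16 pigs, rapeseed oil pigs 4 and 3, were on the same diet. The log2 fold change was 0.04 (SE 0.23) for beef tallow against rapeseed oil, -0.15 (SE 0.20) for coconut oil against rapeseed oil and -0.18 (SE 0.19) for coconut oil against beef tallow.

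APOA2 gave the only unadjusted p under 0.05. On rapeseed oil it was at 502, 390, 427, 447 and 474 CPM. On beef tallow it was at 379, 294, 473, 460 and 181 CPM, and on coconut oil from 217 over a median of 329 to 436 CPM. All rapeseed oil pigs lay above the coconut oil median, but the groups overlapped. The log2 fold change for coconut oil against rapeseed oil was -0.41 (SE 0.17, interval -0.77 to -0.05, unadjusted p = 0.0264, adjusted p = 0.309 by edgeR), and it stayed between -0.50 and -0.32 when any 1 pig was left out. For beef tallow against rapeseed oil it was -0.33 (SE 0.22), and -0.16 without beef tallow pig 5. For coconut oil against beef tallow it was -0.08 (SE 0.24).

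APOM was at 455, 315, 308, 335 and 506 CPM on rapeseed oil and from 235 over a median of 282 to 441 CPM on coconut oil. On beef tallow 4 pigs were between 285 and 338 CPM and pig 3 was at 613 CPM, the highest of the 16. That pig is the one with low ALB and a high Kupffer cell sum, and their part in its APOM level was not tested. The log2 fold change was -0.07 (SE 0.23), -0.33 (SE 0.19) and -0.25 (SE 0.22) for beef tallow against rapeseed oil, coconut oil against rapeseed oil and coconut oil against beef tallow. The last value was 0.02 without beef tallow pig 3.

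APOB and MTTP, which act together in VLDL assembly, had their lowest mean on coconut oil, and neither passed in any comparison. APOB was at 3264, 4490, 3400, 3573 and 3340 CPM on rapeseed oil, at 3876, 3651, 2769, 5121 and 3339 CPM on beef tallow, and from 2979 over a median of 3496 to 3858 CPM on coconut oil. Its log2 fold changes were 0.05 (SE 0.18), -0.07 (SE 0.14) and -0.12 (SE 0.17) in the same order of comparisons. Both the highest and the lowest pig were on beef tallow. MTTP was at 158, 148, 109, 192 and 148 CPM on rapeseed oil, at 174, 137, 142, 201 and 117 CPM on beef tallow, and from 105 over a median of 127 to 160 CPM on coconut oil. Its log2 fold changes were 0.03 (SE 0.19), -0.23 (SE 0.17) and -0.25 (SE 0.18). The coconut oil pigs lay within the range of the other pigs, apart from the lowest of them.

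APOC3 was the steadiest of the genes. It was at 1639, 1708, 1603, 1422 and 1826 CPM on rapeseed oil, at 1529, 1475, 1590, 1589 and 1416 CPM on beef tallow, and from 1198 over a median of 1598 to 1728 CPM on coconut oil. Its coefficient of variation (CV, the SD as a percentage of the mean) within diets was 10.4%, rank 25 from the lowest among 1285 genes with a mean of at least 100 CPM, whose median CV was 20.6%. The log2 fold changes were -0.11 (SE 0.15), -0.13 (SE 0.14) and -0.01 (SE 0.15). APOM was the most variable of the 8 tested genes, with a CV of 29.7%, and counting error alone gives 5.34% for it.

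APOE and APOH had their highest mean on coconut oil. APOE was at 2228, 3030, 2408, 2118 and 2220 CPM on rapeseed oil, at 2496, 2349, 2047, 1864 and 1718 CPM on beef tallow, and from 1909 over a median of 2512 to 3128 CPM on coconut oil. Macrophages also make APOE, and summed Kupffer cell markers ranged from 1036 to 1989 CPM, from 1354 to 2598 CPM and from 1046 to 1370 CPM on the 3 diets. Of 10 such markers 9 were in the files, CSF1R had 0 to 2 reads, and their part in the APOE level was not tested. C1QA and CTSS make up most of that sum. The scavenger receptor gene CD163 was the 1 Kupffer cell marker that passed, higher on beef tallow than on rapeseed oil by 0.79 on the log2 scale (SE 0.17, adjusted p = 0.0414 by edgeR). The log2 fold change of APOE was -0.20 (SE 0.17) for beef tallow against rapeseed oil, 0.06 (SE 0.15) for coconut oil against rapeseed oil and 0.27 (SE 0.17, adjusted p = 0.553 by edgeR) for coconut oil against beef tallow.

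APOH was at 5020, 5239, 5373, 4244 and 4852 CPM on rapeseed oil, at 3958, 6436, 3888, 5762 and 3740 CPM on beef tallow, and from 4800 over a median of 5690 to 8654 CPM on coconut oil. Beef tallow pigs thus formed a lower 3 and a higher 2, and coconut oil pig 1 lay above all others. The log2 fold change was -0.06 (SE 0.19) for beef tallow against rapeseed oil. It was 0.27 (SE 0.17) for coconut oil against rapeseed oil and 0.13 without coconut oil pig 1. For coconut oil against beef tallow it was 0.33 (SE 0.20, adjusted p = 0.537 by edgeR), and 0.19 to 0.46 with any 1 pig left out.

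APOA4, which the intestine makes in quantity, was close to the detection limit in liver, with 2 to 15 reads per pig. The mean was 4.70 ± 2.06 CPM on rapeseed oil (SD, n = 5), 7.90 ± 2.27 CPM on beef tallow (n = 5) and 6.40 ± 2.32 CPM on coconut oil (n = 6). The filter on low counts removed it. Without that filter the log2 fold changes were 0.78 (SE 0.48, adjusted p = 0.590), 0.53 (SE 0.45) and -0.24 (SE 0.39) by edgeR, and the first interval, -0.18 to 1.74, includes a rise of more than 2-fold. No difference in APOA4 was detected, with an interval of -0.36 to 1.43 for coconut oil against rapeseed oil and -1.03 to 0.56 for coconut oil against beef tallow.

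**Figure D3:**
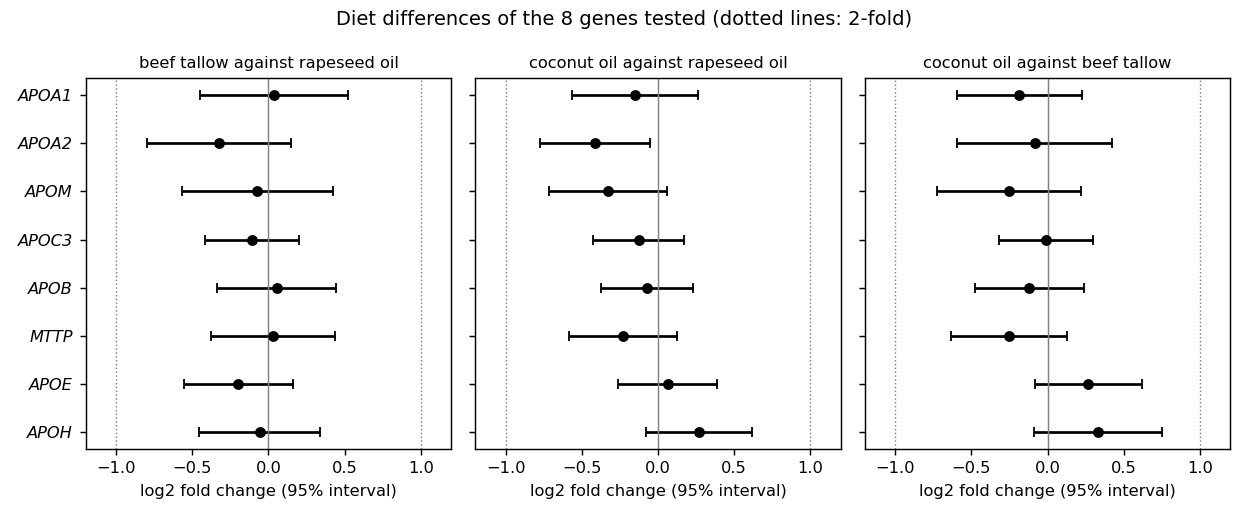
Log2 fold change of each of the 8 tested genes in the 3 pairs of diets (points) with the 95% interval of the edgeR fit (lines). Every interval lies within the 2-fold bounds, from -0.80 for APOA2 to 0.75 for APOH.

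Each interval bounds the diet difference of its own gene, without adjustment over genes or comparisons, so the intervals are not a joint bound. In each comparison the intervals of all 8 tested genes lay within a 2-fold difference, which does not cover APOA4. They reached from -0.80 (APOA2) to 0.52 (APOA1) for beef tallow against rapeseed oil, from -0.77 (APOA2) to 0.62 (APOH) for coconut oil against rapeseed oil and from -0.72 (APOM) to 0.75 (APOH) for coconut oil against beef tallow. Standard errors of these genes were 0.15 to 0.23, 0.14 to 0.20 and 0.15 to 0.24, while the median over all genes was 0.26, 0.23 and 0.25. The smallest change called for any gene was 0.69, 0.91 and 1.28 on the log2 scale. The median of the 8 log2 fold changes was -0.07, -0.14 and -0.10, against 0.01, 0.00 and -0.01 over all genes. Of the 8 genes, 3, 2 and 2 were higher in the diet named first, against 51.5%, 49.9% and 49.6% of all genes.

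Ratios of genes within a pig need no normalization between libraries. The log2 ratio of APOA1 to APOB, the main proteins of HDL and of VLDL, was 0.83 ± 0.43 on rapeseed oil (SD, n = 5), 0.85 ± 0.45 on beef tallow (n = 5) and 0.78 ± 0.22 on coconut oil (n = 6). The ratios APOA4 to APOA1 and APOC3 to APOA1 compare neighbours in 1 gene cluster. None of the 9 tests of 3 ratios in 3 pairs of diets passed (two-sided exact permutation test, lowest p = 0.167, all adjusted p = 0.961). The lowest p belonged to APOA4 to APOA1, whose log2 ratio was higher by 0.68 on beef tallow than on rapeseed oil. That difference was 0.33 with a prior count of 5 and 0.44 to 1.02 with any 1 pig left out.

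Levels of APOA1 and MTTP varied together over the 16 pigs by Pearson's r. Among 28 pairs of the 8 tested genes on the log2 scale, this pair alone passed after adjustment, with Pearson's r = 0.739 (permutation p = 0.00135, adjusted p = 0.0378). Spearman's rho was 0.656 (permutation p = 0.00695) and did not pass (adjusted p = 0.0922). Without the 2 pigs farthest from the median of APOA1, rapeseed oil pigs 3 and 4, r was 0.633, and after removing the mean of each diet it was 0.731. The genes of a pair share their library and its normalization, and the share of all gene pairs with an r as high was not computed. APOB and MTTP gave r = 0.618, which did not pass (adjusted p = 0.134).

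**Figure D4:**
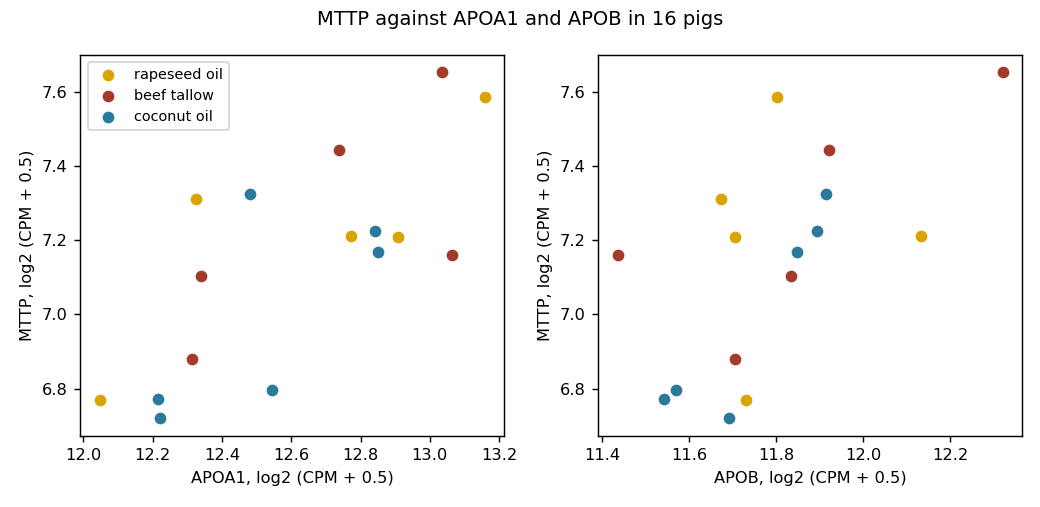
MTTP level against APOA1 (left) and APOB (right), both axes as log2 of CPM plus 0.5, in 16 pigs, coloured by diet. MTTP is higher in pigs with more APOA1 by Pearson's r (0.739), while Spearman's rho did not pass after adjustment. Pigs of the 3 diets are mixed along the trend.

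By the rule set for the gene with the smallest p, the genes whose log2 level was most like that of APOA2 over the 16 pigs were CTSH (r = 0.743), PGM2 (r = 0.739) and BCKDHB (r = 0.727) of 6048 genes with a symbol, as a description. Gilts and barrows, compared over all 16 pigs with diet as a covariate, gave no call among the 8 genes by edgeR (adjusted p from 0.942 to 1.00). None passed without adjustment either, against 4.9% of all genes, and 0.0786% of all genes passed after adjustment. The largest difference was in APOA1, 0.19 (SE 0.17) higher in gilts on the log2 scale. No interaction of diet and sex passed. That of APOA2 for coconut oil against beef tallow was the one with an unadjusted p under 0.05 (log2 1.06, SE 0.44, unadjusted p = 0.0282, adjusted p = 1.00 by edgeR).

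A wider list of 75 genes of lipoprotein metabolism was counted beside them, of which 61 were in the files and 38 were tested. None passed an adjusted p of 0.05 by edgeR in any comparison. At an unadjusted p of 0.05, 5 were higher and 1 lower for beef tallow against rapeseed oil, beside 8.33% and 6.66% of all genes. For coconut oil against rapeseed oil 2 were higher and 2 lower, beside 6.45% and 6.53%, and for coconut oil against beef tallow 2 and 2, beside 5.24% and 6.21%. DESeq2 called 0 genes of the list in each comparison, with an adjusted p for 38, 27 and 22 of them, beside 3.24%, 2.61% and 2.46% of all genes. For beef tallow against rapeseed oil, 10 of 12 genes of assembly and export and 9 of 11 transcriptional regulators had a positive log2 fold change (4 of these 11 at an unadjusted p under 0.05), and all 4 receptor and uptake genes a negative one. Without beef tallow pig 3 the counts were again 10 of 12, 9 of 11 and 4 of 4, and with any 1 pig left out they ran from 9 to 11, from 8 to 9 and from 3 to 4. With all pigs, the remaining groups of that comparison had 2 of 3 (cholesterol efflux), 2 of 6 (remodelling in plasma) and 0 of 2 genes (other apolipoproteins) positive. Genes of assembly and export were positive in 7 of 12 cases for coconut oil against rapeseed oil and 2 of 12 for coconut oil against beef tallow. Regulators had 7 and 4 of 11, and receptor and uptake genes 1 and 3 of 4, in the same order. No gene in these counts passed singly after adjustment. Over all genes tested, 49.9% and 49.6% had a positive value in these comparisons, and 51.5% for beef tallow against rapeseed oil. Some markers of cell types passed there, close to the threshold, and leaving out a pig was not run for them. CD163 and the endothelial marker LYVE1 (0.88, adjusted p = 0.0495 by edgeR, groups overlapping) were higher. TTR was lower (-0.78, adjusted p = 0.0426 by edgeR) and was the only hepatocyte marker that passed. In all, 7 of 8 Kupffer cell markers, 4 of 5 endothelial markers and 2 of 7 hepatocyte markers had a positive value, and their part in the group counts was not tested.

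Genes of the wider list with the smallest p are named here with their values. The liver X receptor gene NR1H2 was at 25.6 to 37.1 CPM on rapeseed oil and at 37.6 to 46.8 CPM on beef tallow, so the groups did not overlap, as for 4.54% of all genes. Its log2 fold change was 0.49 (SE 0.19, adjusted p = 0.217 by edgeR). SOAT2, which esterifies cholesterol for VLDL, had -0.74 (SE 0.25, adjusted p = 0.153 by edgeR) for beef tallow against rapeseed oil and -0.69 (SE 0.24) for coconut oil against rapeseed oil. PPARGC1A, a transcriptional coactivator, had 0.58 (SE 0.21) on beef tallow and 0.62 (SE 0.23) on coconut oil against rapeseed oil. PLIN2, which coats lipid droplets, had 0.99 (SE 0.42) on beef tallow against rapeseed oil, and 0.53 without beef tallow pig 5. The transcription factor genes CREB3L3 and HNF4A had 0.48 (SE 0.21) and 0.51 (SE 0.24) in the same comparison, and HNF4A had 0.77 without rapeseed oil pig 2.

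For coconut oil against rapeseed oil the lipase inhibitor gene ANGPTL4 had the smallest p of the list. Its log2 fold change was 0.81 (SE 0.25, adjusted p = 0.179 by edgeR), and 0.52 (SE 0.23) against beef tallow, the latter 0.31 without coconut oil pig 5. Coconut oil pigs 5 and 6 were at 436 and 347 CPM, and the other coconut oil pigs at 173 to 230 CPM. Rapeseed oil pigs were at 102 to 214 CPM and beef tallow pigs at 149 to 204 CPM. Coconut oil pigs 5 and 6 also had the largest libraries (1659936 and 1767671 reads on genes), whose part was not tested. No fit left out both pigs. ABCG8, a cholesterol exporter into bile, had -0.63 (SE 0.26) against rapeseed oil and -0.64 (SE 0.24) against beef tallow. The bile acid receptor gene NR1H4 had 0.32 (SE 0.16) against rapeseed oil. APOOL, counted here with the other apolipoproteins although no role in lipoproteins was examined, had -0.44 (SE 0.22) against rapeseed oil. Against beef tallow, the chaperone gene CALR had -0.46 (SE 0.17) and PON1, a lactonase carried on HDL, 0.40 (SE 0.18). The nuclear receptor gene NR0B2 had -0.84 (SE 0.40), or -0.46 without beef tallow pig 5, and PDIA4, a protein disulfide isomerase, -0.33 (SE 0.17) in that comparison.

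**Figure D5:**
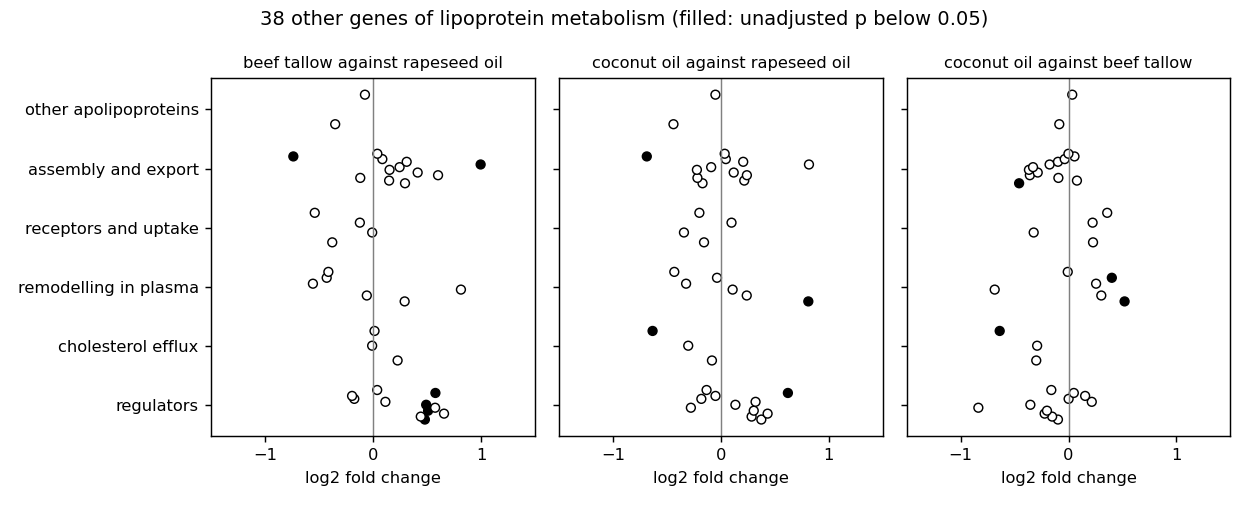
Log2 fold changes of the tested genes of the wider list by group in the 3 pairs of diets, 1 point per gene, filled where the unadjusted p was below 0.05. Values scatter on both sides of 0, and no gene passed an adjusted p of 0.05 by edgeR.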

How the data were processed

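Hepatic mRNA was read from the 3′ end (QuantSeq FWD), 1 library per pig. RNA was extracted with a PureLink kit per the labels, while the study's methods name another kit. The deposited values are raw read counts per gene, which the authors made by trimming, mapping with TopHat to the pig genome and counting with HTSeq, without normalization. Reads aligned to several places in the genome were counted on no gene (15.4 to 38.1% of tallied reads), so genes with close copies may be undercounted. Ambiguous reads, which overlap several genes, were 3.08 to 4.60%. Reads on no annotated gene were also left out, such as 507360 of 3197675 tallied reads in beef tallow pig 3 and 596929 of 1981470 in beef tallow pig 5. The strand setting was not given in the sources used here. The 5 tallies of unassigned reads stayed out of library sizes and tests. Symbols and positions came from Ensembl and RefSeq tables, and 14857 of 25880 identifiers had a symbol.

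Diets were tested 2 at a time, on their own pigs only and without covariates, with edgeR 4.0.16 in R 4.3.3 (quasi-likelihood, TMM, filterByExpr with minimum count 10 and minimum total 15, Benjamini-Hochberg, threshold 0.05). The standard error is the log2 fold change divided by the square root of F. DESeq2 1.42.0 was an alternative. Within-pig ratios used a prior count of 0.5, and correlations 100000 permutations. Scripts were tested on simulated data. None of 120 pairs of libraries was identical. Replicate numbers did not pair the pigs. Pigs were separate animals. The edgeR and ratio tests set a difference between groups against the spread between pigs, and the correlation test shuffled pigs over all diets.

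Genes and lists were chosen with earlier results of these data known. Named from the wider list were genes passing the threshold or, with fewer than 6, the 6 with the smallest p in each comparison; likeness was ranked for the gene with the smallest p. Of the wider list, 2 genes are not reported here, and its counts leave them out.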

Additional observations from a re-analysis of the deposited data

Results flagged for a closer look

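In 4 of 81 groups of pigs examined, 1 pig stood apart from the others of its diet by Dixon's criterion, which chance meets in about 5% of groups. APOB was at 4490 CPM in rapeseed oil pig 2, with the next pig at 3573 CPM. APOH was at 8654 CPM in coconut oil pig 1, with the next at 5850 CPM. APOM was at 613.1 CPM in beef tallow pig 3, with the next at 337.9 CPM, and the log2 ratio of APOA1 to APOB was 1.628 in the same pig, with the next at 0.8162. No explanation of these values was tested.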

How the results depend on the processing

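The number of the 8 genes called stayed at 0 in each comparison under every alternative: DESeq2, another normalization, total counts, no low-count filter, all 16 pigs in 1 fit, sex as covariate, the replicate block, and leaving out each pig. Of 168 log2 fold changes under alternatives other than leaving out a pig, 167 kept their direction. APOC3 for coconut oil against beef tallow turned to 0.005 without the filter. With 1 pig left out, 232 of 256 kept their direction. The ranges of those that turned were, for beef tallow against rapeseed oil, APOA1 -0.088 to 0.18, APOB -0.081 to 0.15, APOH -0.20 to 0.019, APOM -0.35 to 0.047 and MTTP -0.078 to 0.13. For coconut oil against rapeseed oil they were APOB -0.11 to 0.021 and APOE -0.0038 to 0.17. For coconut oil against beef tallow they were APOA2 -0.25 to 0.039, APOB -0.21 to 0.015, APOC3 -0.058 to 0.044 and APOM -0.39 to 0.024. The log2 ratio differences of APOA1 to APOB ranged from -0.17 to 0.15, -0.18 to 0.081 and -0.16 to 0.12 in the 3 comparisons, and that of APOC3 to APOA1 for coconut oil against rapeseed oil from -0.19 to 0.13. The difference of APOA4 to APOA1 for beef tallow against rapeseed oil, 0.68, was 0.33 with a prior count of 5. With 2 to 15 reads of APOA4 per pig, adding 5 reads to each count pulls that difference towards 0 by arithmetic. Leaving out each pig in the wider list was chosen after seeing the data, and no named gene of it was called in any of those fits.

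As a share of all tallied reads, the summed share was 0.980% on rapeseed oil, 0.959% on beef tallow and 1.03% on coconut oil, since more reads enter the total. Without the 10 most abundant other genes it was 2.57%, 2.58% and 2.60%. Same-numbered pigs correlated at -0.219 to 0.133, so numbers do not pair them, and with the replicate block the count of the 8 genes called was 0 in each comparison. Over all genes the block gave 35, 8 and 4 calls against 70, 9 and 4, DESeq2 188, 93 and 53, and no filter 190, 82 and 22. Depth limits APOA4 above all, with 2 to 15 reads a pig.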
